A study of Mus musculus with 2 samples.

Results

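The genes described here encode 2 neuropeptides of the secretin family and their receptors: Adcyap1, the precursor of PACAP (pituitary adenylate cyclase-activating polypeptide), Vip, the precursor of VIP (vasoactive intestinal peptide), and the receptor genes Adcyap1r1 (PAC1), Vipr1 (VPAC1) and Vipr2 (VPAC2). They were taken by name, and all 5 were found among the 23912 genes of both count tables, each with at least 1 molecule counted in each library. The data are single-nucleus RNA sequencing of hindbrain neurons from TRAP2 mice aged 8 to 12 weeks. TRAP2 is a line in which a drug-dependent recombinase is made under control of the Fos gene, so that neurons active in a chosen time window can be marked. All animals received a retrograde AAV with a nuclear green fluorescent protein (AAV-retro-H2B-GFP) in the lumbar spinal cord, which marks neurons that project there. Hindbrain pieces from 7.3 to 5.2 mm behind bregma were pooled by treatment, and nuclei of descending neurons active under the treatment were sorted by fluorescence, per the series' design text. There is 1 pooled library for the hot water bath and 1 for the treatment labelled SNI with brush, so the libraries can be compared but the treatments cannot, and no p-value is given. The labels used here do not say how many animals entered a pool.

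PACAP binds the PAC1 receptor with high affinity and also both VPAC receptors, whereas VIP binds VPAC1 and VPAC2 and only weakly PAC1. All 3 receptors couple to the stimulatory G protein and raise cAMP through adenylyl cyclase, which acts on protein kinase A, Epac and CREB. PACAP is known as a peptide of glutamatergic projection neurons in the brainstem, and VIP as a peptide of interneurons, parasympathetic neurons and some periaqueductal neurons.

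The precursor sequences show how close the peptides are. The best-matching in-frame stretch of both coding sequences, read from the GENCODE vM21 transcripts for mm10, is 75 bases long, begins at the basic cleavage site and runs into the mature peptide. It is printed 5′ to 3′ because it is the part that PACAP and VIP share; capitals mark bases that are identical between the genes and lower case those that differ.
Adcyap1: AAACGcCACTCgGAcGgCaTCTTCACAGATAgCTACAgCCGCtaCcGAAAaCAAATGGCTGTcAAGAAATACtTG
Vip: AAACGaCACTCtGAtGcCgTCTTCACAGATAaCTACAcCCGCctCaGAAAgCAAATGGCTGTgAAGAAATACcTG
Of the 75 bases, 62 (82.7%) were identical, and 20 of the 25 codons (80%) encoded the same residue. The stretch lies in coding exons on the plus strand, at chr17:93203984-93204058 in Adcyap1 and at chr10:5644018-5644092 in Vip. Adcyap1r1 lies at chr6:55451978-55501451, Vipr1 at chr9:121642716-121672954 and Vipr2 at chr12:116077726-116146261. Among the receptors, the aligned coding bases of Adcyap1r1 were 67.5% identical with Vipr1 and 65.3% with Vipr2.

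The hot water bath library held 425 nuclei with a median of 36962 UMIs (unique molecular identifiers, the counted transcripts), and the SNI with brush library held 288 nuclei with a median of 32853. No cell barcode was shared. After removal of called doublets and of 17 SNI with brush nuclei whose cluster had Cyp3a25 and Cps1, genes of liver, in front, 423 and 264 neuronal nuclei remained. All 8 neuron markers were detected in each library. Each nucleus was classed by its own UMIs of transmitter genes, with at least 75% of 3 or more from the vesicular glutamate transporters or from Gad1, Gad2, Slc6a5 and Slc32a1, while 10 or more UMIs of Tph2, the enzyme of serotonin synthesis in neurons, made a Tph2 nucleus. The hot water bath library had 252 glutamatergic, 60 inhibitory and 26 Tph2 nuclei, and the SNI with brush library had 119, 101 and 3. Other nuclei were mixed (33 and 23) or had under 3 transmitter UMIs (52 and 18), and 50 and 40 nuclei lay near the 75% limit, with 65 to 85% of one kind. Glutamatergic nuclei held a median of 0 and 1 inhibitory UMIs and inhibitory nuclei a median of 0 glutamate transporter UMIs, whereas Tph2 nuclei of the hot water bath library also held a median of 18 inhibitory UMIs. Levels below are UMIs summed over a class per 1000000 UMIs of that class (CPM). All intervals are exact 95% intervals that cover counting error only, without differences between animals or nuclei. A ratio was counted as higher or lower where it was at least 1.5-fold and its interval lay beyond 1.

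Adcyap1, the PACAP precursor, was the unevenly spread gene of the PACAP pair. It was found in 204 of 423 hot water bath nuclei (48.2%, interval 43.4 to 53.1%) and in 67 of 264 SNI with brush nuclei (25.4%, 20.2 to 31.1%). In the hot water bath library it reached 32.6 CPM (29.2 to 36.3) in glutamatergic nuclei, 22.4 CPM (16.5 to 29.7) in inhibitory nuclei and 0.913 CPM (0.0231 to 5.09) in Tph2 nuclei. It reached 22.04 CPM (18.3 to 26.3) in glutamatergic and 5.35 CPM (3.22 to 8.35) in inhibitory nuclei of the SNI with brush library, and was not detected in its 3 Tph2 nuclei. The order in the hot water bath library was glutamatergic, inhibitory, Tph2, and the intervals of its glutamatergic and inhibitory nuclei overlapped slightly, while those of the SNI with brush library did not. With 3 Tph2 nuclei, the SNI with brush library allows up to 24.4 CPM in that class by the exact interval, so their place in the order is not known. The level was highest in the 33 mixed nuclei of the hot water bath library, at 83.9 CPM (68.3 to 102).

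**Figure D1:**
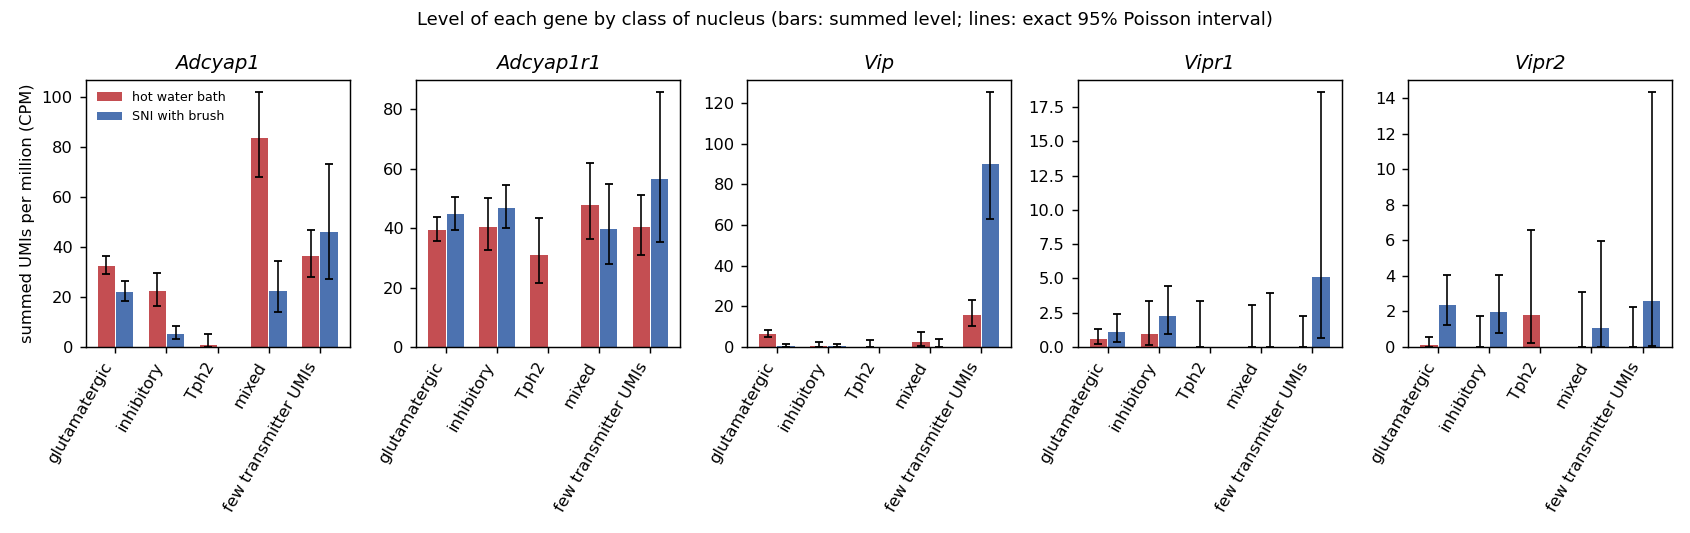
Level of the 5 genes in summed CPM (vertical axes, each from 0) by class of nucleus, with bars for the hot water bath (red) and SNI with brush (blue) libraries and lines for exact 95% Poisson intervals; Tph2 nuclei of the SNI with brush library (3 nuclei) are not drawn. Adcyap1 falls from glutamatergic to Tph2 nuclei while Adcyap1r1 lies between 31.0 and 56.6 CPM in every bar drawn.

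Among Tph2 nuclei of the hot water bath library, 1 of 26 held an Adcyap1 UMI, a single one, against 133 of 252 glutamatergic nuclei. The log2 ratio of Tph2 over glutamatergic nuclei was -4.58 (-10.5 to -2.67). Median depth was similar, at 40064 UMIs per Tph2 nucleus and 38996 per glutamatergic nucleus. Thinned to 10000 UMIs per nucleus, 0 of 26 Tph2 nuclei, which allows a share of up to 11.5% by 3 counts and 13.2% by the exact interval, and 24.6% of glutamatergic nuclei (19.4 to 30.4%) held a UMI. Of the 5 genes, Adcyap1 and Vip were lower in Tph2 nuclei, in a comparison where 14.8% of all 14554 genes tested were lower and 8.25% higher. Scaled by size factors instead of total UMIs, the higher genes were 49.2% of all calls rather than 35.8%.

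The inhibitory class was not uniform for Adcyap1. Of the hot water bath inhibitory nuclei, 14 carried 3 or more UMIs of Gcg, the proglucagon gene, which encodes the peptide GLP-1. Those 14 nuclei held 44 of the class's 48 Adcyap1 UMIs, and 13 of them had at least 1, with 0 to 8 UMIs per nucleus. Their level was 97.0 CPM (70.5 to 130.2). The other 46 inhibitory nuclei held 4 UMIs in 3 nuclei, or 2.36 CPM (0.644 to 6.05), and the log2 ratio of the sets was 5.21 (3.90 to 7.30). Median depth was 30190 UMIs in the Gcg nuclei and 34619 in the others, so the nuclei with more Adcyap1 were the shallower ones.

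A further 14 nuclei with 3 or more Gcg UMIs were mixed, with both glutamate transporter and inhibitory UMIs, and held Adcyap1 at 139.7 CPM, with 13 of the 14 positive. Over all 28, Adcyap1 stood at 119.8 CPM (99.1 to 143.6) with 92.9% of nuclei positive, against 28.02 CPM (25.4 to 30.8) and 45.2% in the 389 nuclei with no Gcg UMI. Thinned to 10000 UMIs the shares were 75% (55.1 to 89.3%) and 22.4% (18.3 to 26.8%). The SNI with brush library had 2 such nuclei, with 1 and 7 Adcyap1 UMIs, too few for a comparison.

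Inhibitory nuclei with the glycine transporter gene Slc6a5, which marks glycine-releasing neurons, were low. None of the 20 such hot water bath nuclei held an Adcyap1 UMI, and the level was at least 8.82-fold lower than the 35.2 CPM of the 39 inhibitory nuclei with no Slc6a5 UMI, taking 3 counts over the set as the floor. That fold rests on the Gcg nuclei, which held 44 of the 48 UMIs: against the 4.25 CPM of inhibitory nuclei under 3 UMIs of both genes, the floor of 3.99 CPM allows no difference to be seen. Of 71 such SNI with brush nuclei 4 held one (3.17 CPM, 1.45 to 6.02), and 6 of their 9 UMIs were in 1 nucleus. There the 18 inhibitory nuclei with no Slc6a5 UMI had 15.6 CPM (6.29 to 32.2), and the log2 ratio was -2.33 (-3.90 to -0.64). Inhibitory nuclei under 3 UMIs of both Gcg and Slc6a5 had 4.25 CPM (1.16 to 10.9) in the hot water bath library (26 nuclei), and the 29 SNI with brush nuclei of this kind had 12.97 CPM (5.93 to 24.6).

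**Figure D2:**
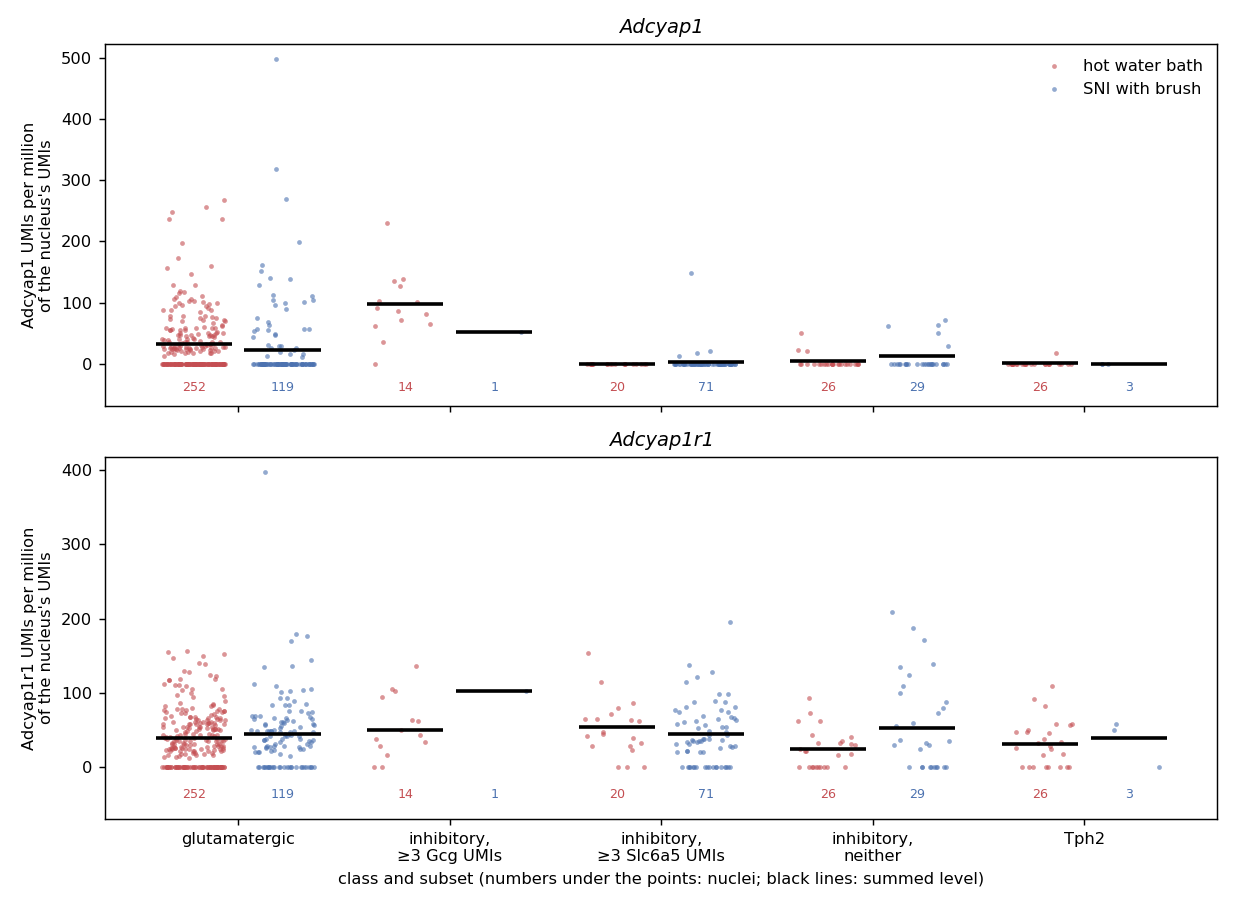
Adcyap1 (top) and Adcyap1r1 (bottom) in CPM of each nucleus's own UMIs (vertical axes), 1 point per nucleus, by class and subset of inhibitory nuclei, for the hot water bath (red) and SNI with brush (blue) libraries; black lines are summed levels and the numbers are nuclei. Adcyap1 points of the 14 hot water bath inhibitory nuclei with Gcg lie above 0 except 1, while all 20 with Slc6a5 lie at 0, and Adcyap1r1 is present in every subset.

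The inhibitory to glutamatergic ratio of Adcyap1 moved with these subsets. Over whole classes the log2 ratio was -0.53 (-1.01 to -0.10) in the hot water bath library, short of 1.5-fold, while the SNI with brush library gave -2.01 (-2.82 to -1.34). Without the nuclei with 3 or more Gcg UMIs, an alternative chosen after seeing the data, it was -3.62 (-5.67 to -2.42) and -2.08 (-2.92 to -1.39). Classing nuclei by cluster gave -2.19 in the hot water bath library, and requiring UMIs of 1 kind alone gave -2.09 there and -4.18 in the SNI with brush library. For this comparison 3.85% of 14803 genes were lower and 5.57% higher in inhibitory nuclei of the SNI with brush library, and Adcyap1 was 1 of the lower genes. The higher genes made up 59.1% of the calls there, or 48.8% with size factors. Among hot water bath nuclei 5.2% of 14778 genes were lower and 6.29% higher, and of the 5 genes Vip was lower.

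Among other subtype genes, Adcyap1 in the hot water bath library was higher in the 15 glutamatergic nuclei with 3 or more UMIs of Tacr3, the neurokinin 3 receptor, at 60.5 CPM (43.2 to 82.4) against 30.3 in nuclei with none (log2 1.01, 0.48 to 1.48). It was also higher with Tac1, the substance P precursor, in that class, at 49.3 against 30.02 CPM (log2 0.73, 0.20 to 1.20). The same genes gave no such value in the SNI with brush library, where Tac1 nuclei had 23.3 CPM against 24.1 (log2 -0.02, -0.84 to 0.67) and too few nuclei carried Tacr3. Glutamatergic nuclei with Crh, the corticotropin-releasing hormone gene, had 21.4 CPM against 34.2 in the hot water bath library (log2 -0.64, -1.41 to -0.02). Over all hot water bath nuclei, those with Penk had 57.2 CPM against 31.6 (log2 0.86, 0.497 to 1.199). In that library's inhibitory class the levels were 35.1 and 11.25 CPM (log2 1.595, 0.577 to 2.836). Most of the UMIs behind that ratio are those of the Gcg nuclei, which held 44 of the class's 48. Penk apart from Gcg was not tested. Glutamatergic Penk nuclei of SNI with brush had 34.2 CPM against 18.3 (log2 0.92, 0.22 to 1.55). The SNI with brush Penk ratios over all nuclei (log2 0.45, -0.12 to 0.97) and inhibitory nuclei (log2 -2.02, -7.95 to 0.11) were not called.

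Nuclei with Sst, the somatostatin gene, went in opposite directions in the libraries. Among hot water bath nuclei 2 of 31 with Sst held an Adcyap1 UMI, at 1.59 CPM (0.193 to 5.76) against 35.8 CPM in nuclei with no Sst (log2 -4.17, -7.54 to -2.63). Among SNI with brush nuclei 18 of 45 did, at 32.4 CPM (24.7 to 41.8) against 15.3 (log2 1.09, 0.59 to 1.57). Most of the SNI with brush UMIs were in the 21 glutamatergic Sst nuclei, 45 of 59, at 46.2 CPM, whereas 11 of the 31 hot water bath Sst nuclei were inhibitory and held 1 UMI. Within inhibitory nuclei the log2 ratio was -3.29 (-9.19 to -1.31) in the hot water bath library and 0.10 (-3.38 to 2.08) in SNI with brush. The hot water bath value rests on the Gcg nuclei, which held 44 of the class's 48 Adcyap1 UMIs. The 46 inhibitory nuclei with no Gcg stood at 2.36 CPM, and the 11 with Sst at 2.11 CPM. The hot water bath library had too few glutamatergic Sst nuclei for a comparison in that class. Neither the difference between the libraries in this ratio nor the part of class make-up in it was tested.

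Adcyap1 by cluster had the same uneven form. The highest levels in the hot water bath library were in the cluster led by Gcg (119.8 CPM over 28 nuclei), a glutamatergic cluster led by Tac1 and Tacr3 among others (66.2 CPM, 37 nuclei) and a glutamatergic cluster led by Ntsr1 and C1ql2 (65.8 CPM, 31 nuclei). The serotonergic cluster, led by Tph2 and Slc6a4, stood at 1.47 CPM (31 nuclei), and the cluster led by Dqx1 and Col5a2 at 2.04 CPM (21 nuclei). The cluster led by Cartpt and Nts held 70 of 179 UMIs of the SNI with brush library (33.4 CPM), the cluster led by Adgrl4 stood higher (64.8 CPM, 11 nuclei), and the Dqx1 cluster stood at 3.06 CPM. The Tac1 and Tacr3 cluster had 1 UMI in its 9 SNI with brush nuclei (3.11 CPM), far from its hot water bath level. Clusters were made from 2000 variable genes, from which these 5 were not held back, so the values are a description. Across neuronal nuclei, Ahi1 was the gene whose log level was most like that of Adcyap1, with Pearson correlations of 0.35 over 423 nuclei and 0.31 over 264, among 10897 genes ranked by the lower of the 2; nuclei of a library share its depth and class make-up.

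Adcyap1r1, the PACAP receptor gene, had similar levels across the classes. It was found in 293 of 423 hot water bath nuclei (69.3%, 64.6 to 73.6%) and 193 of 264 SNI with brush nuclei (73.1%, 67.3 to 78.4%). Its level in the hot water bath library was 39.5 CPM (35.7 to 43.6) in glutamatergic, 40.5 (32.5 to 50) in inhibitory and 31.0 (21.5 to 43.4) in Tph2 nuclei. It was 44.6 CPM (39.2 to 50.6) in SNI with brush glutamatergic and 46.7 (39.9 to 54.4) in inhibitory nuclei, and 2 of that library's 3 Tph2 nuclei held 6 UMIs. All of these intervals overlapped within a library. The log2 ratio of inhibitory over glutamatergic nuclei was 0.04 (-0.31 to 0.37) and 0.07 (-0.23 to 0.36), and that of Tph2 over glutamatergic nuclei was -0.33 (-0.90 to 0.16), so no difference between classes was detectable, and the intervals leave room for one of the size of their bounds.

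The receptor was present where the peptide gene was at or near 0. Of the 26 Tph2 nuclei of the hot water bath library, 18 held an Adcyap1r1 UMI (69.2%, 48.2 to 85.7%), and 17 of them had no Adcyap1. Of the 20 inhibitory nuclei with Slc6a5 in that library 17 held it, at 54.6 CPM (39.2 to 74.0), and 53 of 71 did in the SNI with brush library, at 44.7 CPM (37.3 to 53.2). The 26 hot water bath inhibitory nuclei under 3 UMIs of both Gcg and Slc6a5 were lower in level, at 24.4 CPM (15.5 to 36.7). Within that library's inhibitory class Slc6a5 nuclei stood above the 33.02 CPM of nuclei with none (log2 0.73, 0.08 to 1.37), which the SNI with brush library did not show (log2 -0.16, -0.80 to 0.59); the difference between the libraries was not tested. Gcg nuclei stood at 57.4 CPM (43.3 to 74.5) against 38.5 (log2 0.59, 0.15 to 0.97). The 15 inhibitory Sst nuclei of the SNI with brush library had 21.4 CPM (10.3 to 39.4) against 56.1 with no Sst (log2 -1.32, -2.49 to -0.46), at median depths of 23118 and 30624 UMIs. Inhibitory Sst nuclei of the hot water bath library had 40.1 CPM against 40.9. The liver-gene cluster, left out of the classes, gives a background in cells that are not neurons: 2 of its 17 nuclei held Adcyap1r1 UMIs (8.10 CPM, 2.21 to 20.7) and none held Adcyap1, which allows up to 17.6% of nuclei by 3 counts and 19.5% by the exact interval, at a median of 22273 UMIs. No gene reached a correlation of 0.3 with Adcyap1r1 in both libraries; the highest was Syngr1, at 0.15 in the lower library.

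Peptide and receptor genes were next compared within nuclei. Of the hot water bath nuclei 33.6% held UMIs of both Adcyap1 and Adcyap1r1, 14.7% of Adcyap1 alone, 35.7% of the receptor alone and 16.1% of neither. The SNI with brush shares were 19.7%, 5.68%, 53.4% and 21.2%. In Tph2 nuclei of the hot water bath library 65.4% held the receptor alone and 3.85% both. The receptor was as frequent in nuclei with Adcyap1 as in those without in the hot water bath library, at 69.6% (62.8 to 75.8%) and 69.0% (62.4 to 75.01%), with median depths of 39003 and 35231 UMIs. Thinned to 10000 UMIs these shares were 34.9% and 31.5%.

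Of the SNI with brush nuclei, 52 of 67 with Adcyap1 held the receptor (77.6%, 65.8 to 86.9%) and 71.6% (64.7 to 77.8%) of those without. Thinning to 10000 UMIs gave 24 of 40 nuclei (60%, 43.3 to 75.1%) against 37.4% (31.0 to 44.1%), and to 5000 UMIs 9 of 18 against 23.2%. At 20000 UMIs, an alternative added after seeing the data, the gap was absent, with 57.1% (39.4 to 73.7%) against 57.3% (49.5 to 64.8%). The higher share of the receptor beside the peptide was thus seen at the 2 lower depths, after a random draw of UMIs, and not at the greater depth. Nuclei under 20000 UMIs were left out at that depth. The sets were 35 nuclei with Adcyap1 and 171 without, beside 40 and 222 at 10000 UMIs. Depth and the nuclei compared thus changed together, and their parts were not tested.

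**Figure D3:**
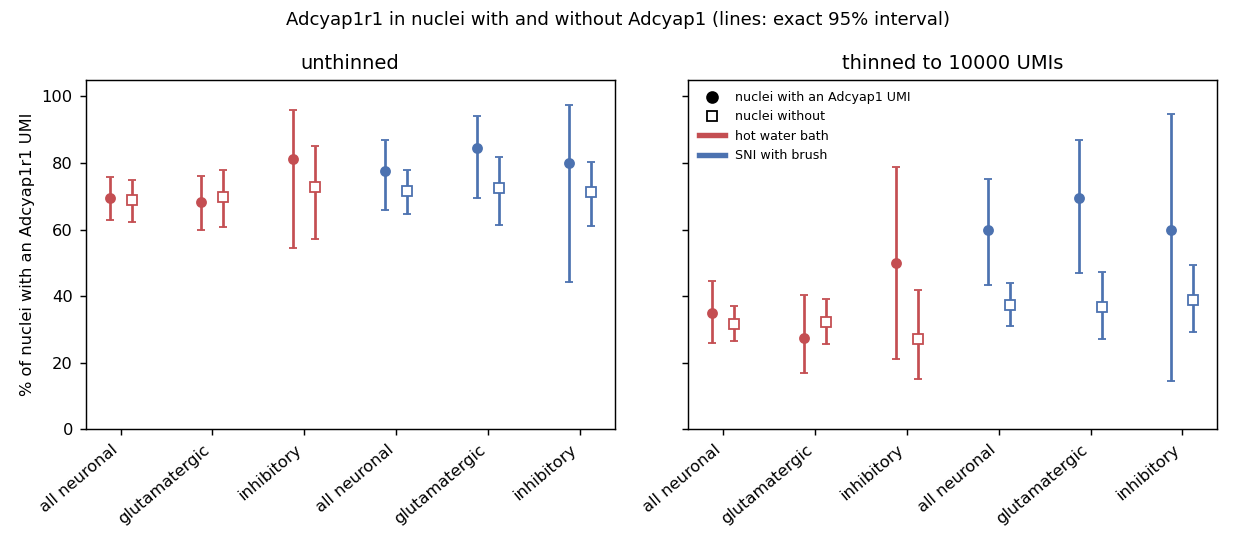
Percent of nuclei with an Adcyap1r1 UMI (vertical axis) among nuclei with (filled circles) and without (open squares) an Adcyap1 UMI, unthinned on the left and thinned to 10000 UMIs on the right, for all neuronal, glutamatergic and inhibitory nuclei of the hot water bath (red) and SNI with brush (blue) libraries; lines are exact 95% intervals. Unthinned shares lie near 70% in both sets of the hot water bath library, and after thinning the SNI with brush sets lie at 60% and 37.4% with overlapping intervals, a gap that was absent at 20000 UMIs.

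Vip, the other peptide gene, was rare and concentrated in single nuclei. It was found in 18 of 423 hot water bath nuclei (4.26%, 2.54 to 6.64%), with 97 UMIs, and in 3 of 264 SNI with brush nuclei (1.14%, 0.235 to 3.29%), with 39. Of the 18 nuclei, 14 were glutamatergic and held 67 UMIs, 1 was inhibitory with 1 UMI, 2 were mixed with 3 UMIs, and 1 with under 3 transmitter UMIs held 26. None of the 26 Tph2 nuclei held Vip, which allows the same shares as above and puts the level at least 2.41-fold below the 6.60 CPM (5.12 to 8.38) of glutamatergic nuclei. The log2 ratio of inhibitory over glutamatergic nuclei in that library was -3.25 (-9.15 to -1.30), which rests on 1 UMI against 67. SNI with brush glutamatergic nuclei held 3 UMIs in 1 nucleus and inhibitory nuclei 1 UMI, so no difference between classes was detectable at this depth.

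The Vip nuclei of the hot water bath library lay in 6 clusters. Of the 18, 10 lay in the cluster led by Piezo2 and Glp1r, a glutamatergic cluster of 21 hot water bath nuclei and no SNI with brush nucleus, with 25 UMIs. Piezo2 encodes a mechanosensitive channel and Glp1r the receptor of GLP-1. A further 3 lay in the glutamatergic cluster led by Ssc4d and Gna14, with 18 UMIs, and 2 in the cluster led by Cartpt and Nts, with 51 (52.6% of the UMIs). Vip is itself among the genes that lead the Cartpt and Nts cluster. The Hox genes of groups 4 to 8 are used at more caudal hindbrain and spinal levels. Of the 28 glutamatergic hot water bath nuclei with 3 or more UMIs of these Hox genes, 8 held Vip (28.6%), with 49 UMIs, against 2 of the 160 with none (1.25%), with 10 UMIs, which gave 40.0 and 1.59 CPM (log2 4.59, 3.65 to 5.80), with 25 of the 49 UMIs in 1 nucleus. Over all neuronal nuclei of SNI with brush, none of the 83 with 3 or more Hox UMIs held Vip, at a median depth of 36163 UMIs. All 39 Vip UMIs of that library were in 3 nuclei with no Hox UMI, 35 of them in 1 nucleus. Within its glutamatergic nuclei, 0 of 38 with 3 or more Hox UMIs and 1 of 38 with none held Vip. The log2 ratio there was -3.29 with an upper bound of 0.79, so no direction was shown in that class.

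The nuclei with the most Vip differed from each other. The SNI with brush nucleus with 35 of the library's 39 Vip UMIs had 0 glutamate transporter and 0 inhibitory UMIs, and held 7 UMIs of Chat, 2 of Slc18a3 and 14 of Slc5a7, genes of acetylcholine synthesis and transport, with 7 of Adcyap1. The hot water bath nucleus with 26 Vip UMIs had no transmitter UMI of either kind, no Chat UMI and 5 of Ddc, the decarboxylase of monoamine synthesis. The next, with 25 Vip UMIs, held 8 of the glutamate transporter gene Slc17a6 and 7 of Adcyap1. These nuclei were singled out after their values were seen. Vip and Adcyap1 shared 11 of the 18 hot water bath nuclei, in a library where 48.2% of all nuclei held Adcyap1. Vip was in 5.4% (2.7 to 9.4%) of nuclei with Adcyap1 and 3.2% (1.3 to 6.5%) of those without. Thinned to 10000 UMIs, Vip was in 1 of 109 and 10 of 314. Vip nuclei held Adcyap1r1 in 15 of 18 (83.3%, 58.6 to 96.4%), against 68.6% (63.9 to 73.1%) of nuclei without Vip. Median depth was 48545 UMIs in nuclei with Vip and 36581 in those without.

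**Figure D4:**
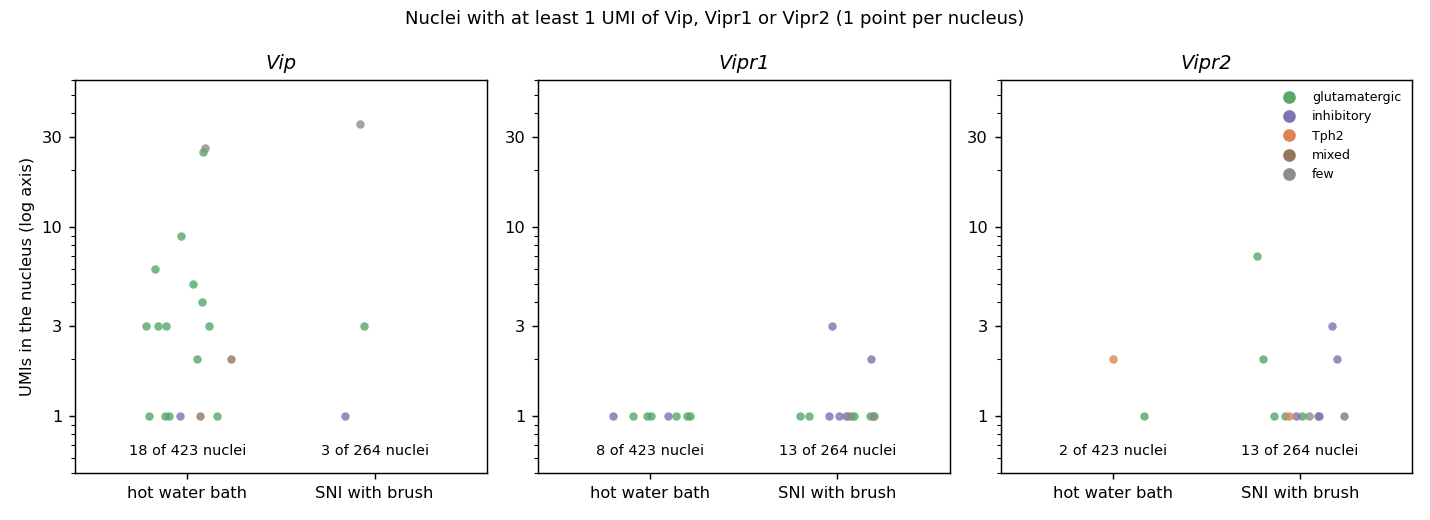
UMIs of Vip, Vipr1 and Vipr2 (vertical axes, logarithmic) in every neuronal nucleus that held at least 1, 1 point per nucleus coloured by class, for the hot water bath and SNI with brush libraries. Vip reaches 26 and 35 UMIs in single nuclei, whereas Vipr1 stays at 3 or fewer and Vipr2 at 7 or fewer.

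Vipr1 and Vipr2, the VPAC receptor genes, were near the limit of detection. Vipr1 was found in 8 hot water bath nuclei (1.89%, 0.820 to 3.69%) with 1 UMI each, 6 of them glutamatergic and 2 inhibitory with Gcg. It was found in 13 SNI with brush nuclei (4.92%, 2.65 to 8.27%) with 16 UMIs, 6 glutamatergic, 5 inhibitory and 2 with few transmitter UMIs. The inhibitory cluster led by Npy held 8 of the 16 UMIs. Vipr2 was found in 2 hot water bath nuclei with 3 UMIs, a Tph2 nucleus with 2 and a glutamatergic nucleus with 1. It was found in 13 SNI with brush nuclei (4.92%, 2.65 to 8.27%) with 23 UMIs, of which 6 nuclei and 15 UMIs were in the cluster led by Dqx1 and Col5a2. That cluster held 44 SNI with brush and 21 hot water bath nuclei, and none of the 21 had a Vipr2 UMI. In the liver-gene cluster of SNI with brush, 1 of 17 nuclei held a Vipr2 UMI, at 2.025 CPM (0.0513 to 11.3). The neuronal nuclei of that library stood close by, at 2.19 CPM (1.39 to 3.28). No Vip or Vipr1 UMI was found in the liver-gene cluster, which allows up to 7.47 CPM by the exact interval. At these counts no difference of Vipr1 or Vipr2 between classes was detectable: the log2 ratio of inhibitory over glutamatergic nuclei in the SNI with brush library was 1.02 (-0.67 to 2.85) for Vipr1 and -0.22 (-1.83 to 1.17) for Vipr2.

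No nucleus of either library held Vip together with Vipr1 or Vipr2. With 18 and 3 Vip nuclei, this allows a share of up to 18.5% and 70.8% by the upper bound of the exact interval. Of the 13 SNI with brush Vipr2 nuclei 12 also held Adcyap1r1 (92.3%, 64.0 to 99.8%) against 72.1% of the others, with median depths of 38807 and 32814 UMIs. Adcyap1 and Vipr1 met in 4 hot water bath and 2 SNI with brush nuclei, and Adcyap1 and Vipr2 in 1 and 2.

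Between the libraries the peptide genes were lower and the VPAC receptor genes higher in SNI with brush, while Adcyap1r1 was close. The log2 ratio of the SNI with brush level to the hot water bath level, over all neuronal nuclei, was -0.96 (-1.22 to -0.72) for Adcyap1, 0.19 (0.01 to 0.36) for Adcyap1r1, -0.68 (-1.26 to -0.14) for Vip, 1.58 (0.32 to 3.06) for Vipr1 and 3.37 (1.84 to 5.94) for Vipr2. Of the 5 genes 2 were higher and 2 lower, where 26.9% of 17452 genes tested were higher and 6.45% lower. Higher genes made up 80.7% of the calls, and 64.6% with size factors, which lowered all log2 ratios by 0.19 and put Adcyap1r1 at -0.0029. Reads outside neurons and RNA quality also moved. Over all nuclei, mitochondrial genes took 0.148% of hot water bath and 0.514% of SNI with brush UMIs. The median share per neuronal nucleus was 0.0702% and 0.272%. Over neuronal nuclei the summed level of 5 liver genes was 1.11 and 22.8 CPM, with Alb, Apob and Serpina1a at 0 in the hot water bath library, and that of 5 oligodendrocyte genes 75 and 176.2 CPM. Per nucleus the liver sum ranged from 0 to 69.3 CPM and from 0 to 1630 CPM, and the oligodendrocyte sum from 0 to 760.5 and from 0 to 3528 CPM. Their part in these ratios was not tested.

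The Adcyap1 ratio depended on which nuclei were compared. Within glutamatergic nuclei it was -0.56 (-0.88 to -0.26), short of 1.5-fold, where 23.2% of 15734 genes were higher and 6.41% lower, and higher genes were 78.4% of the calls or 65.5% with size factors. Within inhibitory nuclei it was -2.04 (-2.91 to -1.27), where 24.6% of 13397 genes were higher and 6.27% lower, or 79.7% and 64.3% higher among the calls under the 2 scalings. The inhibitory class was held by different clusters: 58.4% of it lay in the Npy cluster and 21.8% in the Dqx1 cluster in SNI with brush, while in the hot water bath library 26.7% lay in the Npy cluster, 23.3% in the Gcg cluster and 23.3% in a cluster led by Myo3a and Penk among others. Without the nuclei with 3 or more Gcg UMIs, the inhibitory ratio was 0.98 (-0.49 to 3.13), in the other direction and no longer called, on 18 and 4 UMIs. The glutamatergic class was split as well: its largest cluster was the Cartpt cluster in SNI with brush (26.1%) and a cluster led by Prdm6 and Crh in the hot water bath library (17.5%).

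Hox genes gave a second view of the same point. Groups 4 to 8 summed to 26.7 CPM in the hot water bath and 82.2 CPM in the SNI with brush neuronal nuclei, and 58 of 423 and 83 of 264 nuclei held 3 or more of their UMIs. Among the 260 and 97 nuclei with none, chosen after seeing the data, the Adcyap1 ratio was -0.32 (-0.70 to 0.04), and among glutamatergic nuclei with none 0.0039 (-0.46 to 0.43), so Adcyap1 was not called different between the libraries there. Glutamatergic nuclei with 3 or more Hox UMIs held Adcyap1 at 9.01 CPM (5.51 to 13.9) in SNI with brush and 27.7 CPM (19.2 to 38.7) in the hot water bath library. Whether the treatment, the levels dissected or the neurons caught in each pool set these differences cannot be told apart with 1 library each.

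The Vip ratio rested on single nuclei. Without the nucleus with the most Vip UMIs in each library it was -3.36 (-5.44 to -2.10), on 4 against 71 UMIs, and within glutamatergic nuclei it was -3.38 (-5.91 to -1.99), on 3 against 67. Among nuclei with no Hox UMI it was 1.57 (0.88 to 2.26), on 39 against 37 UMIs, the reverse. Of the 39, 35 were in 1 nucleus, and of the 37, 26 were in 1 nucleus. For Vipr2, glutamatergic nuclei held 13 UMIs in SNI with brush, 7 of them in 1 nucleus, and 1 in the hot water bath library. The log2 ratio was 4.06 (1.85 to 10.0), on fewer UMIs than the floor set for testing a gene. Inhibitory nuclei held 7 and 0 Vipr2 UMIs, also under that floor, and their ratio was not called. For Vipr1 the ratios within glutamatergic nuclei (0.89, -1.02 to 2.79) and inhibitory nuclei (1.04, -1.05 to 4.55) were not called.

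**Figure D5:**
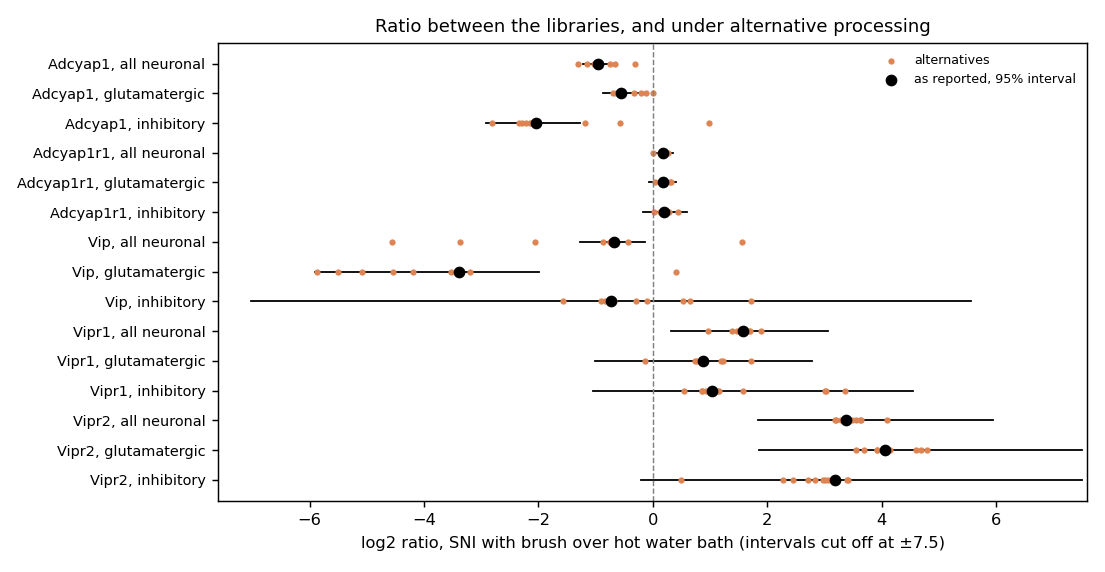
Log2 ratio of the SNI with brush to the hot water bath level (horizontal axis) for the 5 genes over all neuronal, glutamatergic and inhibitory nuclei; black points and lines are the reported ratio and its 95% interval, cut off at the plot's limits, and orange points are alternative ways of processing. All points of Vipr2 lie above 0, those of Adcyap1r1 lie close to 0, and Adcyap1 in inhibitory nuclei and Vip have alternatives on both sides of 0.

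Genes that make, release and read such peptides were listed in 5 groups beside Adnp, a gene induced by VIP and PACAP. No test compares the groups with each other, and each count is set beside the share of all genes tested. Of 14 peptide-processing genes, 7 were lower and 3 higher in Tph2 than in glutamatergic nuclei of the hot water bath library (6 and 4 with size factors). Of all genes, 14.8% were lower and 8.25% higher there, or 11.01% and 10.67% with size factors. The median log2 ratio of the 14 was -0.39 beside -0.12 over all genes tested. Pcsk2, the convertase PC2 that cuts peptide precursors, stood at 27.4 CPM against 499.5 (log2 -4.17, -4.76 to -3.67). Cadps2, a factor for dense core vesicle release, stood at 3.65 against 49.0 CPM (log2 -3.58, -5.63 to -2.38). Pam, the enzyme that amidates peptides, was the reverse, at 1014 against 195.1 CPM (log2 2.38, 2.27 to 2.49).

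For the cAMP route downstream of the receptors the same shares of all genes apply to the Tph2 comparison. Of 12 G protein and adenylyl cyclase genes, 3 were lower and 1 higher in Tph2 nuclei, among them the calcium-stimulated cyclase Adcy8, at 16.4 against 235.2 CPM (log2 -3.80, -4.60 to -3.18). Of 15 protein kinase A, Epac and CREB genes tested, 3 were lower and 1 higher (2 and 2 with size factors), with Rapgef4, which encodes Epac2, at 123.2 against 320.7 CPM (log2 -1.38, -1.64 to -1.13). Between inhibitory and glutamatergic nuclei none of the 15 or 16 such genes tested was called in either library. Of the 12 cyclase group genes, Adcy8 and Adcy2 were lower in the hot water bath library and none was called in SNI with brush. In that comparison 5.2% of all genes were lower and 6.29% higher in the hot water bath library, and 3.85% and 5.57% in SNI with brush. Adnp was called in none of the comparisons.

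Other secretin-family genes were also counted between classes. Of the 17 listed, 8 had enough UMIs for the inhibitory against glutamatergic comparison in the hot water bath library, and 2 were higher and 3 lower, beside 6.29% and 5.2% of all genes. Gcg stood at 246 against 0.394 CPM (log2 9.12, 7.92 to 11.2) and Pth2r, a parathyroid hormone receptor family gene, at 6.52 against 0.985 CPM. Calcr, the calcitonin receptor, and Crh were lower, at 0.466 against 31.7 and 2.33 against 21.7 CPM. Of 8 tested in the SNI with brush library 2 were higher and 4 lower, beside 5.57% and 3.85% of all genes. Gcg, Crh and Calcr had the same directions there as in the hot water bath library, but all 25 Gcg UMIs of SNI with brush inhibitory nuclei were in 1 nucleus. Ramp1, 1 of the 3 receptor activity-modifying proteins that pair with receptors of this family, was higher in inhibitory nuclei of the SNI with brush library, at 7.32 against 2.73 CPM (log2 1.40, 0.45 to 2.44). Among Tph2 nuclei 4 of 6 secretin-family genes tested were lower, beside 14.8% of all genes, and Calcr, Crh, Crhr1 and Calcrl, receptor and peptide genes of the family, were at 0 UMIs there.

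Between the libraries, 4 of 16 protein kinase A, Epac and CREB genes were higher in SNI with brush over all neuronal nuclei under both scalings, or 25% of the list, near the 26.9% of all genes that were higher. They were Rapgef3, which encodes Epac1, Crtc2, a coactivator of CREB, Prkaca, the catalytic subunit of protein kinase A, and Prkar1a, a regulatory subunit. Prkaca stood at 76.7 against 42.1 CPM (log2 0.86, 0.72 to 1.01). Their list had a median log2 ratio of -0.04 beside 0.23 over all genes tested. Of 10 secretin-family genes 3 were higher and 1 lower (1 and 1 with size factors), the lower one being Gcg, at 7.32 against 67.6 CPM, where 6.45% of all genes were lower. With size factors 19.75% of all genes were higher and 10.84% lower. The cyclase group had 1 lower gene of 12 (2 with size factors), and the processing group 1 higher and 2 lower of 14 (1 and 3).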

How the data were processed

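The authors deposited raw UMI counts, 1 table of genes by nuclei for each sample. The tools named in the submitters' processing notes are Cell Ranger 5.0 and Seurat, with the mm10 genome; no source used here says whether intronic reads were counted. Of 723 and 850 listed barcodes, 425 and 288 are in the tables, so nuclei had been filtered. Total counts were 16344606 and 11298755.

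Nuclei needed 500 genes and at most 5% mitochondrial UMIs, which removed none. Scrublet called 2 and 7 doublets, which were removed. Counts were scaled to 10000 and logged, and each library's own mean was subtracted from each of 2000 variable genes. Leiden clusters were made from these in scanpy 1.11.5, with 30 components and 15 neighbours at resolution 1. A cluster was neuronal with at least 3 of 8 neuron markers at 0.5 times the level over all nuclei. Shares carry Clopper-Pearson intervals and levels Poisson intervals (scipy 1.17.1). Log2 ratios had 0.5 UMI added to both sums and an exact conditional interval; genes with 20 or more UMIs in both sets together were tested. A level of 0 was given the floor of 3 counts over the set. Subtype nuclei had 3 or more UMIs of a gene and were compared with nuclei that had none, where both sets held 10 or more. Nuclei are not replicates, so intervals cover counting error only. Ratios were tested on simulated counts.

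All 5 genes are given whatever their value. From lists, at most the 4 genes with the largest called ratios were named. Genes alike in pattern were named from a correlation of 0.3 in both libraries, among genes found in 10% of nuclei of each. The members, lists and rules were chosen with earlier results of these data known. Alternatives were other classes, scalings, filters, depths and subsets of nuclei.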

Additional observations from a re-analysis of the deposited data

How the results depend on the processing

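No paired analysis was possible because each treatment has 1 library, and for the same reason no library could be left out. Of 384 log2 ratios of the 5 genes recomputed under alternatives, 364 stayed within the reported interval, 15 left it without a reversal, and 5 changed sign, 2 of them to values next to 0. For Adcyap1, inhibitory over glutamatergic nuclei in the hot water bath library (-0.53) became -2.09 with UMIs of 1 kind only, -2.19 by cluster and -3.62 without Gcg nuclei, and in SNI with brush (-2.01) it became -4.18 with UMIs of 1 kind only. The Adcyap1 ratio between the libraries (-0.96) became -0.66 as a mean over nuclei, -0.32 in nuclei with no Hox UMI and -1.30 as the mean of the glutamatergic and inhibitory ratios. In glutamatergic nuclei it was 0.0039 without Hox UMIs, that is no difference, and in inhibitory nuclei it turned to 0.98 without Gcg nuclei. For Vip (-0.68) the values were -3.36 without the top nuclei, -4.56 in nuclei with at most 0.5% mitochondrial UMIs, -2.06 as the mean of both class ratios and 1.57 without Hox UMIs; in glutamatergic nuclei (-3.38) it was 0.40 without Hox UMIs. Adcyap1r1 between the libraries was -0.0029 with size factors, which lower all genes alike by 0.19. The gap in Adcyap1r1 share between SNI with brush nuclei with and without Adcyap1, 22.6 points, was -0.17 at 20000 UMIs, where shallower nuclei were left out. Restrictions by Gcg and Hox, the mean of class ratios and the 20000 UMI depth were chosen after seeing the data; the causes were not tested.

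With a floor of 100 UMIs fewer genes were tested, and genes called higher and lower in inhibitory over glutamatergic nuclei fell from 824 and 570 to 372 and 271 in SNI with brush and from 929 to 551 (higher) in the hot water bath library. Between the libraries they fell from 3657 and 1009 to 2399 and 667 in glutamatergic and from 3299 and 840 to 2009 and 517 in inhibitory nuclei. The shares of genes tested moved less. Between the classes they went from 5.57% and 3.85% to 3.72% and 2.71% in SNI with brush. In the hot water bath library they went from 6.29% and 5.2% to 5.44% and 5.36%. Between the libraries they went from 23.2% and 6.41% to 21.4% and 5.94% in glutamatergic nuclei. In inhibitory nuclei they went from 24.6% and 6.27% to 24.7% and 6.36%. Vipr1 and Vipr2 rest on a few UMIs and Vip on a few nuclei, so depth limits every statement on them.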

Other observations

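Within inhibitory nuclei, peptide-processing genes differed between the libraries in both directions. Of 14 genes, 5 were higher and 4 lower in SNI with brush (3 and 5 with size factors), beside 24.6% and 6.27% of all genes (17.8% and 9.90% with size factors), with a median log2 ratio of 0.12 beside 0.24 over all genes tested. Pcsk2, the convertase PC2, stood at 338.3 CPM in SNI with brush and 100.6 CPM in the hot water bath library (log2 1.75, 1.54 to 1.97). Pcsk1, the related convertase PC1/3, stood at 10.98 and 66.6 CPM (log2 -2.59, -3.15 to -2.08). Pam, the amidating enzyme, stood at 226.3 and 543.3 CPM (log2 -1.26, -1.40 to -1.13). The classes held different clusters in the libraries, with the Gcg nuclei in the hot water bath library, and what part of these ratios they carry was not tested.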
